A study of Homo sapiens with 145 samples.

Results

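The genes described here are 7 feedback regulators of p53, MDM2, PPM1D, CCNG1, ZMAT3, PHLDA3, TP53INP1 and RPS27L, out of 12012 genes tested in the human fibrosarcoma cell line HT-1080. A member is a gene whose symbol in the platform annotation is on this list, and where several probe sets carry that symbol the brightest on average was taken. All 7 had probe sets that passed the filter on low values (log2 of at least 4 in at least 5 arrays). Treatment lasted 24 h, with etoposide (ETP, which traps topoisomerase II on DNA) at 0.003, 0.01, 0.03, 0.1, 0.3, 1 or 3 µM, with methyl methanesulfonate (MMS, an alkylating agent) at 1, 3, 10, 30, 100, 300 or 500 µM, or with quercetin (QUE, a plant flavonol) at 1, 3, 10, 30, 60, 80 or 100 µM, or with the DMSO vehicle run beside each chemical. Every group is the same line, no label gives an altered gene, and all dosed wells held DMSO too, so the results describe 1 tumor line at 1 time. Of 145 arrays, 129 were used, because the 16 arrays numbered 2 of ETP and QUE were left out. That choice rests on earlier results of these data, in which they responded like the other chemical, and values with them kept are given under the processing alternatives. That gave 5 replicates in each ETP and QUE group and 6 in each MMS group, 5 at MMS 500 µM. No label states that the numbers stand for separate cultures, so p-values measure the spread between these samples, which may be technical.

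p53 is a transcription factor that is stabilised when DNA is damaged, and several of the genes it activates act back on it or on the kinases that switch it on. MDM2 is the ubiquitin ligase that marks p53 for degradation and PPM1D (Wip1) is a phosphatase that removes activating phosphates from p53 and from the damage kinases. CCNG1 (cyclin G1) recruits a phosphatase to MDM2, ZMAT3 is an RNA-binding zinc finger protein, PHLDA3 holds back AKT at the membrane, TP53INP1 helps a kinase phosphorylate p53, and RPS27L is a ribosomal protein paralog that binds MDM2. In bulk RNA, fewer cells with a transcript and less transcript per cell cannot be told apart.

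RefSeq promoter windows (GRCh38.p14, 250 bases before to 50 after a start site) were matched for 5 members with 10 windows in all, and none was used for PHLDA3 and TP53INP1. The windows were searched for the p53 half-site, whose letters read the same on both strands, and for a double half-site with no spacer and at most 2 mismatches. Windows of MDM2, RPS27L and CCNG1 are shown, since MDM2 alone among these members holds a double half-site, RPS27L alone an exact half-site, and CCNG1 near matches only. Capitals mark the double half-site in MDM2, the exact half-site in RPS27L and the half-sites with 1 mismatch in CCNG1. Other half-sites with 1 mismatch in the MDM2 and RPS27L lines are left in lower case. The lines read 5′ to 3′ on the strand of the gene.
MDM2 downstream start, plus strand, chr12:68808767-68809066: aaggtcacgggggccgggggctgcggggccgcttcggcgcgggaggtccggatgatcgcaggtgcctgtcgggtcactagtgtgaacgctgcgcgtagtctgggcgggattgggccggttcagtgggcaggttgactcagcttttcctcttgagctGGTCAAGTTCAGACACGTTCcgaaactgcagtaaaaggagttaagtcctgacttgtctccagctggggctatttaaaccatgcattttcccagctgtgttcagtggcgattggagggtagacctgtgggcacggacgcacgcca
RPS27L, minus strand, chr15:63157428-63157727: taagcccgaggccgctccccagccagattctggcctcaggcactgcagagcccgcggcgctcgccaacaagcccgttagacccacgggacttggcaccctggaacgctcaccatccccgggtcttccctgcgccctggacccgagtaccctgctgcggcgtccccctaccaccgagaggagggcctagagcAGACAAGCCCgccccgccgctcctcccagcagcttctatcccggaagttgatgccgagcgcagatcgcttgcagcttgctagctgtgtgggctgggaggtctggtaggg
CCNG1, plus strand, chr5:163437321-163437620: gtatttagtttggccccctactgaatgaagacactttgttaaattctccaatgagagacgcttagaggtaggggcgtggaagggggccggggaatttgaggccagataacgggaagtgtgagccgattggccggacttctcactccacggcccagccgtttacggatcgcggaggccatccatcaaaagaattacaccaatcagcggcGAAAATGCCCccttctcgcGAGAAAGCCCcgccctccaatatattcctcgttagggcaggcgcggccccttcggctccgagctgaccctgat

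The MDM2 match, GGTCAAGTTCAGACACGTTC at chr12:68808923-68808942, starts at position -94 from the downstream start site, with 2 mismatches to the double half-site. A double match of this kind was in 0.649% of 35116 windows. The RPS27L match, AGACAAGCCC at chr15:63157527-63157536, starts at position -59, and 6.63% of all windows held an exact half-site. The CCNG1 matches, GAAAATGCCC and GAGAAAGCCC, each have 1 mismatch, as has the match in the PPM1D window, and 63.7% of windows held such a match. A match describes letters in a window and is not a measured binding site.

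The 7 genes lie on 7 chromosomes in the same build: MDM2 at chr12:68808172-68850686, PPM1D at chr17:60600193-60666280, CCNG1 at chr5:163437571-163457640, ZMAT3 at chr3:179017223-179072513, PHLDA3 at chr1:201464278-201469188, TP53INP1 at chr8:94925972-94949378 and RPS27L at chr15:63148249-63157477. The platform has 25 probe sets for them, 9 for MDM2, 5 for ZMAT3, 3 each for TP53INP1 and RPS27L, 2 each for PPM1D and PHLDA3, and 1 for CCNG1. Array medians (log2) spanned 3.51 to 3.58 in ETP, 3.08 to 3.17 in MMS and 3.33 to 3.41 in QUE and did not overlap, so no level was set across chemicals. The cells carried mesenchymal markers, with 7 of 8 detected in the vehicle of all 3 chemicals (all but THY1). Of 7 epithelial markers KRT8 and KRT18 were detected, and none of 5 blood or 3 endothelial markers was.

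Between 4 and 6 of the 7 members were called higher at the upper doses of each chemical, and none was called lower than vehicle at any dose. On the chosen probe sets CCNG1 and ZMAT3 were called at no MMS dose, and RPS27L under no chemical. Other probe sets of ZMAT3 and RPS27L were called, as given below. A gene was called when the Benjamini-Hochberg adjusted p of limma over all genes was under 0.05 and the change was at least 1.5-fold. Under ETP the 2 lowest doses called 0 members, and the next 5 doses, from 0.03 to 3 µM, called 4, 5, 4, 5 and 5. Of all genes, 0% were called higher at the former and 0.366%, 1.38%, 3.04%, 5.15% and 6.24% at the latter. Under MMS 0 members were called from 1 to 30 µM, where 0% of genes were higher, and 4 at 100, 300 and 500 µM, where 0.416%, 4.48% and 17.7% were. Under QUE 0 members were called at 1, 3 and 10 µM, 5 at 30 µM and 6 at 60, 80 and 100 µM, against 0.00833%, 0.025%, 1.12%, 8.43%, 12.8%, 11.5% and 13.1% of all genes.

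The median change of the 7 members was 1.35 on the log2 scale at ETP 3 µM, where the median of all genes was 0.0074. For MMS it was 1.02 at 300 µM and 0.70 at 500 µM, and for QUE 1.13 at 100 µM, with 0.026, 0.054 and 0.0014 over all genes. At the doses next below the first call, ETP 0.01 µM, MMS 30 µM and QUE 10 µM, 7 of 7 members had changes above 0. The same held at ETP 0.003 µM and MMS 10 µM, while 2 of 7 were above 0 at MMS 1 µM and 5 of 7 at MMS 3 µM and QUE 1 and 3 µM. None of these changes passed the adjusted test, and the share of all genes above 0 was not counted. With the replicate number as a block in limma, TP53INP1 at ETP 0.01 µM (0.44, adjusted p = 0.0438), PPM1D at MMS 30 µM (0.40, adjusted p = 0.0306) and MDM2, CCNG1 and PHLDA3 at QUE 10 µM (0.31, 0.25 and 0.53, adjusted p = 0.0162, 0.0421 and 0.0148) passed the p limit under 1.5-fold. At an unadjusted p under 0.05 in limma, 2 members were higher at ETP 0.003 µM, 3 at ETP 0.01 µM, 3 at MMS 30 µM and 3 at QUE 10 µM, where 0.966%, 1.72%, 1.06% and 15.5% of all genes passed that limit in either direction. The doses of a chemical share their vehicle arrays, so these counts are not independent of each other. For the fits with the block, the share of all genes that passed the p limit was not counted.

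**Figure D1:**
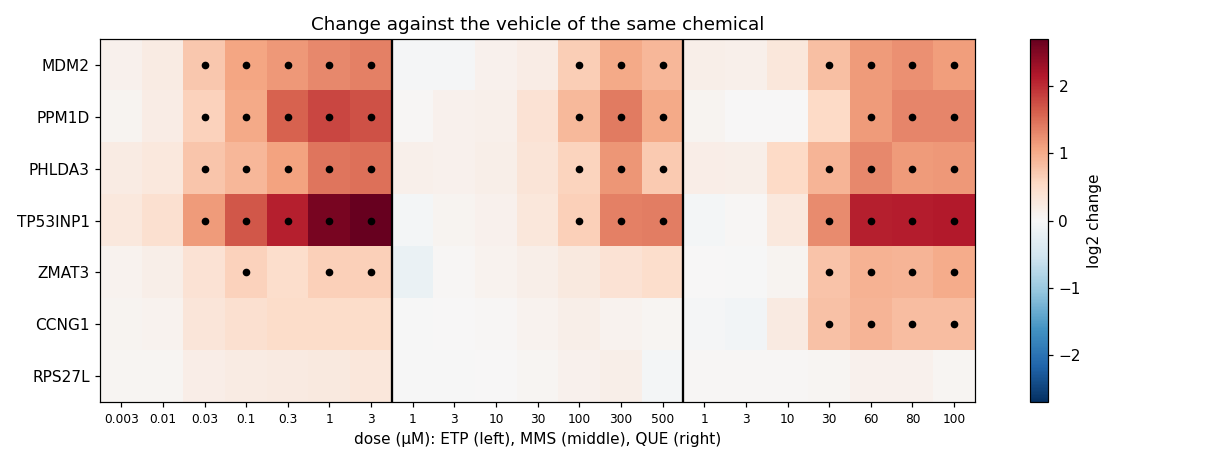
The log2 change of each of the 7 genes (rows) at each of the 7 doses of ETP, MMS and QUE (columns, µM) against the vehicle of the same chemical, with a dot where the gene was called. MDM2, PPM1D, PHLDA3 and TP53INP1 have dots from ETP 0.03 µM and MMS 100 µM, CCNG1 has them under QUE from 30 µM, and RPS27L has none.

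MDM2, the ligase of p53, rose at the 5 highest ETP doses, the 3 highest MMS doses and the 4 highest QUE doses. In the ETP vehicle its 5 arrays read 9.98, 9.87, 9.77, 10.11 and 9.99 (log2 signal), and at ETP 3 µM they read 11.48, 11.26, 11.23, 11.30 and 11.22. The groups did not overlap, and the change was 1.35 ± 0.11 (SE, limma adjusted p = 2.37e-12). At ETP 0.03 µM, its first called dose, the arrays read 10.80, 10.32, 10.49, 10.90 and 10.87, a change of 0.73 ± 0.11 (adjusted p in limma 6.07e-05). Between 0.1 and 3 µM the group means lay from 11.01 to 11.30, and no step in that range passed the test. In the MMS vehicle MDM2 ranged from 9.21 to 9.92 with a median of 9.63 (n = 6), and at 300 µM from 10.34 to 10.72 with a median of 10.65, again with no overlap. The change was 1.02 ± 0.13 at MMS 300 µM and 0.89 ± 0.13 at 500 µM. The QUE vehicle arrays read 9.81, 9.77, 9.42, 9.84 and 9.76, and those at 100 µM read 10.69, 11.02, 10.73, 10.79 and 11.00, a change of 1.13 ± 0.09 without overlap. MMS arrays numbered 5 gave the lowest MDM2 level in 8 of 8 MMS groups, so a part of the spread followed the replicate number.

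PPM1D, the phosphatase that resets the damage response, had the narrowest spread among the ETP vehicle arrays, which read 7.80, 7.92, 7.92, 7.88 and 7.86. At ETP 0.01 µM all 5 arrays, from 8.02 to 8.13, lay above the vehicle, but this change of 0.20 ± 0.09 did not pass the adjusted test (adjusted p = 1 in limma). PPM1D was called from 0.03 µM on, but the call at 0.03 µM (0.62 ± 0.09) was marginal. It was lost without 0.03 µM number 6 (0.57), with the mean of probe sets (0.57) and with the arrays numbered 2 kept (0.51). At 3 µM the arrays read 9.59, 9.42, 9.69, 9.67 and 9.64, a change of 1.73 ± 0.09 (limma adjusted p = 4.00e-17). The step from 0.1 to 0.3 µM was 0.58 ± 0.09 (limma adjusted p = 0.000878), just short of 1.5-fold. Under MMS its level peaked below the highest dose. The 300 µM arrays spanned 8.73 to 8.91 with a median of 8.87, the 500 µM arrays read 8.27, 8.37, 8.45, 8.57 and 8.62, and the 2 groups did not overlap. The step from 300 to 500 µM was -0.39 ± 0.10 (limma adjusted p = 0.000859), under 1.5-fold, while the change against vehicle was still 1.02 ± 0.10. Under QUE PPM1D was first called at 60 µM. At 30 µM its change of 0.54 ± 0.12 passed the p limit but stayed under 1.5-fold, and at 60 µM it was 1.14 ± 0.12, with a called step between them of 0.60 ± 0.12 (limma adjusted p = 0.0289). Leaving out any of 5 arrays, QUE 30 µM number 4, 5 or 6 or QUE 60 µM number 3 or 4, left 0 members called at that step.

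TP53INP1, the kinase cofactor, had the largest change of the 7 at the highest dose of each chemical. Its ETP vehicle arrays read 7.73, 8.00, 7.98, 8.14 and 7.90, and the 3 µM arrays 10.70, 10.24, 10.78, 10.71 and 10.74. These groups lay far apart, with a change of 2.68 ± 0.13 or 6.42-fold (limma adjusted p = 1.36e-17). At ETP 0.03 µM the arrays read 8.98, 8.86, 9.02, 9.37 and 9.34, all above the 0.01 µM arrays (8.34 to 8.49), and the step of 0.72 ± 0.13 was called (limma adjusted p = 0.0179). It was the only member called at that step, where 0.0167% of all genes were, and 0 were called without 0.01 µM number 3, 4 or 5 or 0.03 µM number 5 or 6. Under MMS the vehicle spanned 7.06 to 7.62 with a median of 7.33, 300 µM spanned 8.37 to 9.29 with a median of 8.61, and the 500 µM arrays read 8.89, 8.38, 8.52, 8.87 and 8.88. The changes were 1.36 ± 0.12 and 1.38 ± 0.13, and the step between these doses was 0.02 with a 95% interval from -0.24 to 0.28. The QUE vehicle arrays read 7.61, 7.90, 7.99, 7.85 and 7.76, and the 30 µM arrays 9.35, 9.43, 8.98, 8.85 and 8.86, with no overlap. Steps of 1.00 ± 0.15 from 10 to 30 µM and 0.82 ± 0.15 from 30 to 60 µM were called, and from 60 µM on the change stayed between 2.09 and 2.14.

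PHLDA3, the AKT repressor, was called at the same 12 doses as MDM2. The ETP vehicle arrays read 6.03, 6.04, 5.91, 5.79 and 5.83 and the 3 µM arrays 7.37, 7.28, 7.39, 7.38 and 7.66, a change of 1.49 ± 0.11 with no overlap (limma adjusted p = 1.83e-13). Under MMS its chosen probe set followed PPM1D. The vehicle spanned 5.00 to 5.68 with a median of 5.20, the 300 µM arrays 6.14 to 6.62 with a median of 6.45, and the 500 µM arrays read 5.71, 6.10, 5.89, 6.10 and 5.99. Both doses lay above the vehicle, at 1.19 ± 0.15 and 0.70 ± 0.16, and the step between them was -0.48 ± 0.16 (limma adjusted p = 0.00944), under 1.5-fold. At MMS 100 µM the call was marginal: 4 of 6 arrays lay above the vehicle, the change was 0.61 ± 0.15 (limma adjusted p = 0.0110), and without any of 4 single arrays (MMS 100 µM number 2 or vehicle number 4, 5 or 6) it lay between 0.52 and 0.57, under 1.5-fold. The QUE vehicle arrays read 5.83, 5.67, 5.83, 5.59 and 5.89 and the 100 µM arrays 7.46, 6.50, 6.90, 6.86 and 7.00, a change of 1.18 ± 0.20 without overlap.

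**Figure D2:**
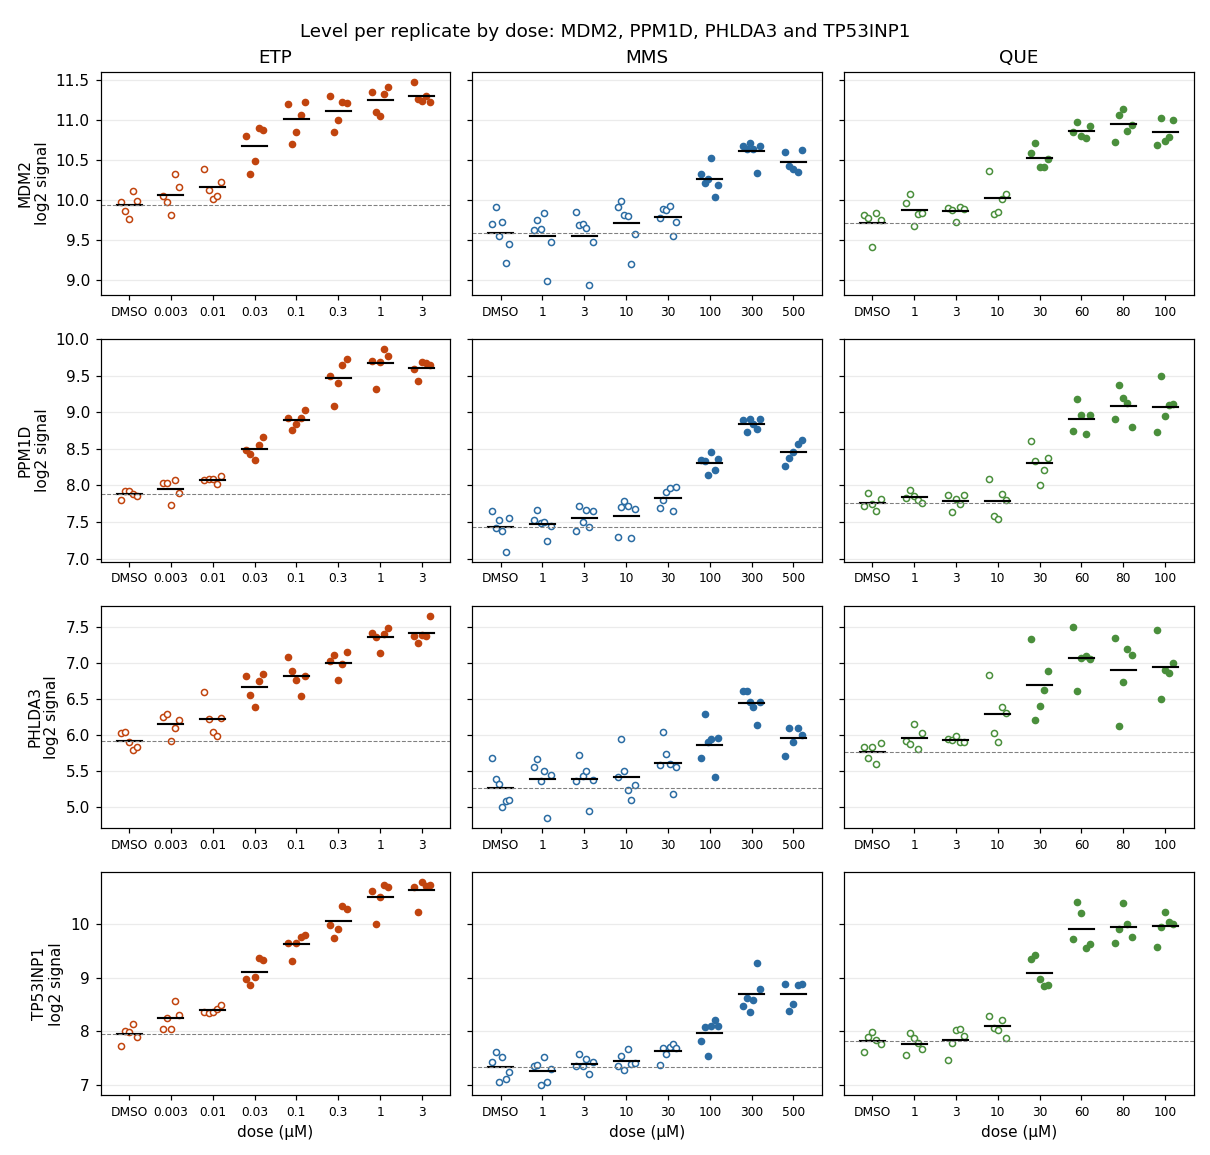
Level (log2 signal, vertical) of MDM2, PPM1D, PHLDA3 and TP53INP1 in every replicate against dose (µM, horizontal, not to scale), with ETP, MMS and QUE in columns. Bars are group means, the dashed line is the vehicle mean and filled points are called groups. On these chosen probe sets PPM1D and PHLDA3 lie lower at MMS 500 than at 300 µM, and TP53INP1 does not.

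ZMAT3, the RNA-binding member, was called at the 4 highest QUE doses and at 3 ETP doses. Its QUE vehicle arrays read 10.76, 10.94, 11.00, 10.96 and 10.85 and those at 30 µM 11.45, 11.99, 11.77, 11.57 and 11.59, so the groups did not overlap. The change was 0.77 ± 0.13 at 30 µM (limma adjusted p = 2.05e-05) and 1.00 ± 0.13 at 100 µM, and the step from 10 to 30 µM of 0.70 ± 0.13 was called. Under ETP it was called at 0.1, 1 and 3 µM with changes of 0.63, 0.65 and 0.64 (each ± 0.16), but not at 0.3 µM (0.47 ± 0.16, limma adjusted p = 0.0366, under 1.5-fold). At 0.3 µM the array numbered 3 read 10.86 and the other 4 read 11.52 to 11.85. The title of that low array has the suffix -nf, which the labels do not explain. Without this array the change was 0.63 and the call was made, as it also was with all arrays of that suffix left out. Without vehicle number 1 or 6 the calls at 0.1 µM (0.56 or 0.55), 1 µM (0.58 or 0.57) and 3 µM (0.58 or 0.56) were lost. The call at 0.1 µM was also lost without 0.1 µM number 4 or 5, at 0.58 in each case. Under MMS ZMAT3 was not called. At 300 µM the arrays spanned 10.05 to 11.64 with a median of 11.13, and the change of 0.39 ± 0.23 became 0.59 and was called without number 4, the lowest array of that group. At 500 µM the change was 0.48 ± 0.24 (limma adjusted p = 0.0803), and without number 3 it was 0.61 and called. Both doses, blocked by replicate number in limma, passed the p limit under 1.5-fold, at 0.39 ± 0.12 (adjusted p = 0.00457) and 0.54 ± 0.12 (adjusted p = 0.000152).

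CCNG1, the cyclin that recruits a phosphatase to MDM2, was called under QUE, at 30 µM and above, and at no dose of ETP or MMS. Its QUE vehicle arrays read 11.14, 11.74, 11.87, 11.56 and 11.56, and the 30 µM arrays 12.26, 12.49, 12.42, 12.31 and 12.32, with no overlap. The change was 0.78 ± 0.11 at 30 µM (limma adjusted p = 2.00e-06) and 0.84 ± 0.11 at 100 µM. Under ETP the vehicle arrays read 11.24, 11.78, 11.90, 11.68 and 11.60 and the 3 µM arrays 11.87, 12.20, 12.39, 12.15 and 12.11, with overlap of 1 array. The change of 0.50 ± 0.13 passed the p limit (limma adjusted p = 0.00129) but was 1.42-fold and so not called. Array numbers carried through this gene, since number 1 was the lowest and number 4 the highest in 8 of 8 ETP groups, and within numbers the change at 3 µM spanned only 0.42 to 0.63. Under MMS the median was 11.30 in the vehicle, 11.41 at 300 µM and 11.29 at 500 µM, with ranges from 11.12 to 11.78, 11.22 to 11.93 and 11.16 to 11.96 that overlapped. Within numbers the change was positive in 6 of 6 pairs at 100 µM (0.045 to 0.289) and at 300 µM (0.052 to 0.155), and in 4 of 5 at 500 µM (-0.105 to 0.186). Without the replicate number as a block none of these 3 doses passed the p limit. With it, limma gave 0.16 ± 0.03 at 100 µM (adjusted p = 0.000171) and 0.10 ± 0.03 at 300 µM (adjusted p = 0.00562), which passed it far under 1.5-fold, and 0.05 ± 0.03 at 500 µM (adjusted p = 0.144), which did not. The change at 500 µM was 0.06 with a 95% interval from -0.24 to 0.36.

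RPS27L, the ribosomal protein paralog, was called under no chemical on its chosen probe set, although its changes under ETP of at least 0.03 µM passed the p limit. The ETP vehicle arrays read 12.68, 12.88, 12.84, 12.87 and 12.84 and the 3 µM arrays 13.16, 13.09, 13.13, 13.11 and 13.15, so the groups did not overlap. The change was 0.31 ± 0.04, or 1.24-fold (limma adjusted p = 1.89e-08), and from 0.03 µM on 5 of 5 arrays of every ETP dose lay above the vehicle. Under MMS the change was 0.15 ± 0.05 at 300 µM (limma adjusted p = 0.0253) and -0.06 ± 0.06 at 500 µM, with a step between them of -0.21 ± 0.06 (limma adjusted p = 0.00195), all under 1.5-fold. Under QUE it was 0.11 ± 0.04 at both 60 and 80 µM, which passed the p limit (limma adjusted p = 0.0388 and 0.0453) under 1.5-fold, and 0.06 ± 0.04 at 100 µM, which did not. At 100 µM the arrays read 12.76, 12.54, 12.70, 12.79 and 12.82 against 12.55, 12.74, 12.66, 12.66 and 12.68 in the vehicle. RPS27L signals lay close to the array maxima, which spanned 13.6 to 13.7 in ETP and QUE and 13.2 to 13.6 in MMS, and the part of this in the size of its changes was not tested.

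**Figure D3:**
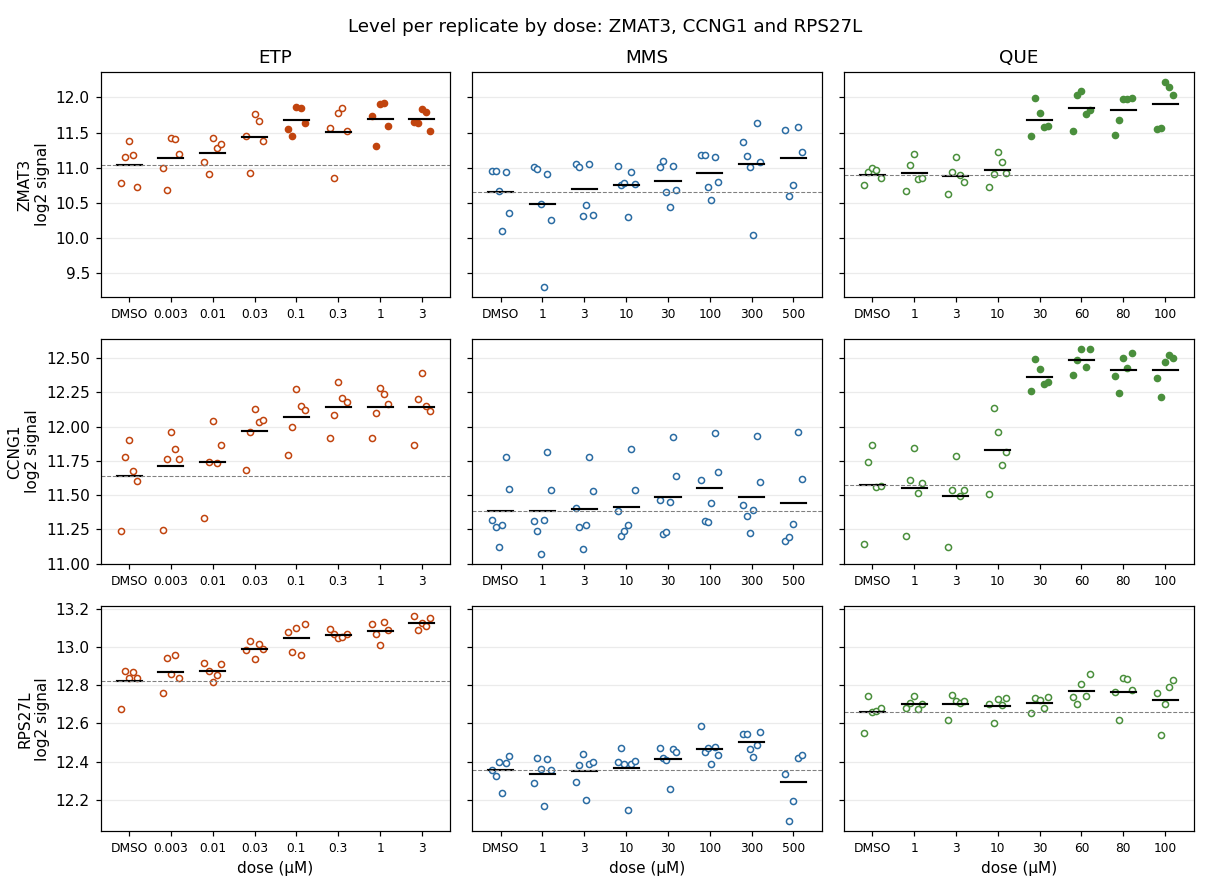
Level (log2 signal, vertical) of ZMAT3, CCNG1 and RPS27L in every replicate against dose (µM, horizontal, not to scale), with ETP, MMS and QUE in columns. Bars are group means, the dashed line is the vehicle mean and filled points are called groups, which are absent for all 3 genes under MMS, for CCNG1 under ETP and for RPS27L throughout.

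Other probe sets of the same genes, fitted over all 26908 kept probe sets, differed in size from the chosen ones. The share of all probe sets called in these fits, here and in the comparisons below, was not counted. The 7 kept MDM2 probe sets were all called higher at ETP 3 µM, with changes from 1.20 to 3.15, and at MMS 500 µM 5 of the 7 were, with changes of those 5 from 0.89 to 1.27. The MDM2 probe set that changed by 1.20 at ETP 3 µM and 0.90 at MMS 500 µM had vehicle means of 3.78 and 3.42, below the filter level of 4. Of the 5 ZMAT3 probe sets all were called at ETP 3 µM (0.64 to 1.30) and QUE 100 µM (1.00 to 1.59), and 4 were called at MMS 500 µM, with 0.66 to 0.80 outside the chosen one. At MMS 500 µM the brightest ZMAT3 probe set was thus the 1 that was not called. The second PHLDA3 probe set changed by 0.90 ± 0.13 at MMS 300 µM and by 0.92 ± 0.14 at 500 µM. The fall of PHLDA3 between these doses was thus on its chosen probe set only. The second PPM1D probe set fell too, from 1.36 ± 0.12 to 0.59 ± 0.13. RPS27L has a second probe set with an ETP vehicle mean of 8.24, which changed by 1.00 ± 0.11 at ETP 3 µM and was called (limma adjusted p = 2.52e-09), by 0.10 ± 0.14 at MMS 500 µM and by 0.24 ± 0.17 at QUE 100 µM. The remaining RPS27L probe set, at 8.28 in the same vehicle, changed at these doses by 0.13 ± 0.14, -0.18 ± 0.19 and -0.16 ± 0.21. Of the 3 RPS27L probe sets 1 was also called higher at ETP 0.1, 0.3 and 1 µM. The second TP53INP1 probe set had vehicle means of 3.27 to 3.51, below the filter level of 4, and changed by 0.92, 0.19 and 0.84 at the highest doses of ETP, MMS and QUE.

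**Figure D4:**
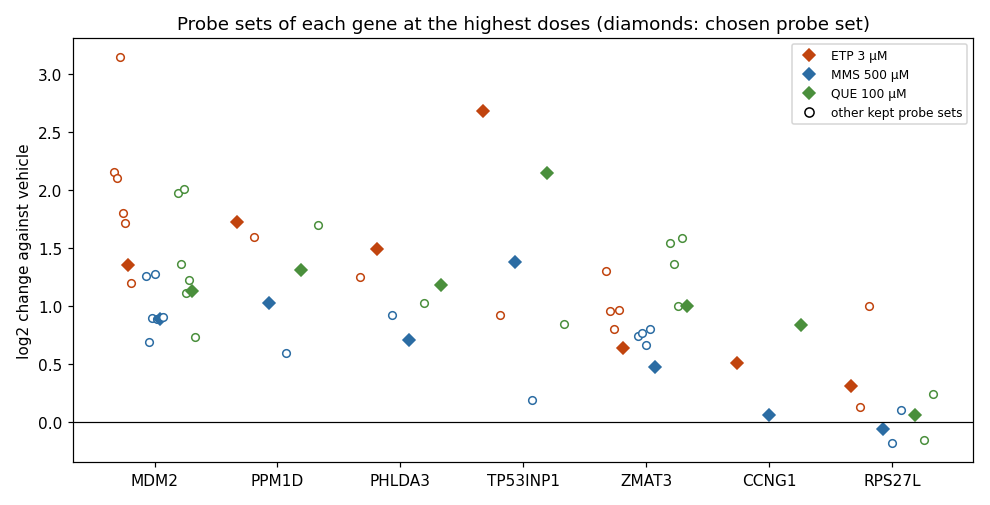
Log2 change against vehicle (vertical) of every kept probe set of the 7 genes at the highest dose of each chemical. Diamonds are the chosen probe sets and open circles the others, which for MDM2 at ETP 3 µM reach 3.15 and for RPS27L 1.00.

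The changes of the chosen probe sets at the highest doses were compared between chemicals. Each comparison was the difference of 2 changes against their own vehicles, in 1 limma fit of all arrays with p-values adjusted over all genes. The doses differ between chemicals and are no matched amounts of damage. Between ETP 3 µM and MMS 500 µM 3 members were called different, where 30.6% of all genes were. TP53INP1 changed more under ETP by 1.30 ± 0.20 (limma adjusted p = 2.11e-08), PHLDA3 by 0.79 ± 0.22 (limma adjusted p = 0.00220) and PPM1D by 0.71 ± 0.14 (limma adjusted p = 2.41e-05). MDM2 (0.47 ± 0.17), CCNG1 (0.45 ± 0.19) and RPS27L (0.37 ± 0.07) passed the p limit under 1.5-fold, and ZMAT3 differed by 0.16 with a 95% interval from -0.38 to 0.71. The second PHLDA3 probe set differed by 0.33 ± 0.19 (limma adjusted p = 0.177) and was not called. MDM2 probe sets that differed by 0.82, 1.42 and 2.25 were called, and the chosen one and the rest were not. The second PPM1D and TP53INP1 probe sets (1.00 and 0.73) were called. With the mean of probe sets PHLDA3 (0.56) was not called and MDM2 (0.95) was.

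Between ETP 3 µM and QUE 100 µM 0 members were called, where 23.5% of genes were. TP53INP1 (0.54 ± 0.20), PPM1D (0.42 ± 0.15) and RPS27L (0.24 ± 0.07) were higher under ETP at adjusted p of 0.0271, 0.0200 and 0.00251 in limma, all under 1.5-fold. Without any of 4 single arrays, ETP 3 µM number 3, ETP vehicle number 5, QUE 100 µM number 4 or QUE vehicle number 1, TP53INP1 passed 1.5-fold, at 0.59 to 0.64. For MDM2 the 95% interval of the difference ran from -0.11 to 0.57, for PHLDA3 from -0.14 to 0.77, for ZMAT3 from -0.92 to 0.20 and for CCNG1 from -0.72 to 0.05. Between QUE 100 µM and MMS 500 µM CCNG1 (0.78 ± 0.19, limma adjusted p = 0.000471) and TP53INP1 (0.77 ± 0.20, limma adjusted p = 0.000792) were called higher under QUE, where 28.4% of genes were called. The second RPS27L probe set changed more under ETP than under MMS by 0.90 ± 0.20 and than under QUE by 0.75 ± 0.21, and both were called. Between ETP and QUE, the second PPM1D probe set differed by -0.10 ± 0.20 and the second TP53INP1 probe set by 0.08 ± 0.17, neither called. An MDM2 probe set (0.70 ± 0.21) and a ZMAT3 probe set (-0.63 ± 0.21) were called there, and the others of these genes were not. Between QUE and MMS, the second probe sets of PPM1D (1.10 ± 0.19) and TP53INP1 (0.65 ± 0.16) were called. So were ZMAT3 probe sets at 0.60, 0.79 and 0.80.

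**Figure D5:**
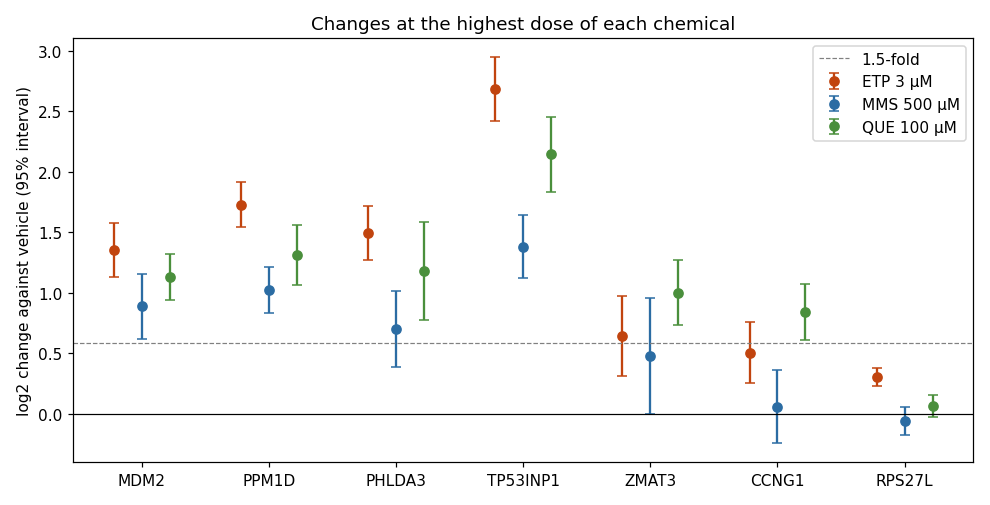
Log2 change against vehicle (vertical, with 95% interval of the limma fit) of the 7 genes at the highest dose of each chemical (3, 500 and 100 µM); the dashed line marks 1.5-fold. The TP53INP1 interval is from 2.42 to 2.95 under ETP and from 1.12 to 1.64 under MMS, and the CCNG1 interval holds 0 under MMS only.

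Steps from one dose to the next show which neighbouring doses differed by a called change. Under ETP the member calls were 1 from 0.01 to 0.03 µM (TP53INP1) and 0 at the later steps, where 0%, 0.266%, 0.117% and 0.391% of all genes were called in either direction. From 0.03 to 0.1 µM TP53INP1 and PPM1D had the largest steps, of 0.52 and 0.40, and did not pass the test. Under MMS 0 members were called from 30 to 100 µM (0.4% of genes), 1 from 100 to 300 µM (TP53INP1, 0.72 ± 0.12, with 3.95% of genes) and 0 from 300 to 500 µM (18.7% of genes). Under QUE the calls were 2 from 10 to 30 µM (TP53INP1 and ZMAT3, with 5.85% of genes) and 2 from 30 to 60 µM (TP53INP1 and PPM1D, with 0.0749%). From 60 to 80 and from 80 to 100 µM 0 members and 0% of genes were called, and the member steps there lay between -0.17 and 0.17. Further member steps passed the p limit under 1.5-fold. They were PPM1D at ETP 0.1 to 0.3 µM (0.58), MMS 30 to 100 µM (0.48) and 100 to 300 µM (0.53), and PHLDA3 at the last (0.58). At QUE 10 to 30 µM they were MDM2 (0.50), PPM1D (0.53) and CCNG1 (0.53). From MMS 300 to 500 µM PPM1D (-0.39), PHLDA3 (-0.48) and RPS27L (-0.21) fell. The share of all genes passing the p limit alone was not counted.

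The members varied in how closely they kept to a common dose pattern. Over the 21 dose groups, Pearson's r of a member's change with the mean of the other members was 0.98 for TP53INP1 and for MDM2, 0.97 for PHLDA3, 0.92 for PPM1D, 0.89 for ZMAT3, 0.79 for CCNG1 and 0.70 for RPS27L. Doses of a chemical share their vehicle arrays, so these points are not independent. The non-members most like the mean of the 7 were ISCU (r = 0.99), an iron-sulfur cluster scaffold, XPC (0.98), a DNA damage sensor, GREB1 (0.98), PSTPIP2 (0.98), ACER2 (0.98), a ceramidase, TRIAP1 (0.98), YBX3 (0.97) and STX6 (0.97). GREB1 changed by 2.93 at ETP 3 µM, 1.89 at MMS 500 µM and 2.24 at QUE 100 µM, more than any of the 7 members at these doses, and YBX3 by 0.51, 0.22 and 0.45.

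Of the other p53-activated targets, 34 of the 37 listed were tested, and 28 were called higher under ETP at 3 µM, 27 under QUE at 100 µM, and 20 and 16 under MMS at 300 and 500 µM, where 6.24%, 13.1%, 4.48% and 17.7% of all genes were. The list was chosen with results of these data known, so its direction is no independent evidence. In the same order its median change was 1.12, 1.19, 0.65 and 0.48, against 0.0074, 0.0014, 0.026 and 0.054 over all genes. At ETP 3 µM the largest were ACER2 (2.65), TP53I3 (2.63), SPATA18 (1.97) and the kinase PLK3 (1.85). At QUE 100 µM they were ACER2 (2.60), TP53I3 (2.49), the death receptor FAS (2.36) and SPATA18 (2.31), with an ACER2 vehicle mean of 3.87 that is below the filter level. At MMS 500 µM SERTAD1 rose by 2.01, PLK3 by 1.49 and the cyclin kinase inhibitor CDKN1A by 1.41, whereas TGFA (-1.76) and PLK2 (-1.22) were called lower. At QUE 100 µM PLK2 (-0.62) was the 1 target called lower.

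Of 16 genes listed as the core of the pathway, such as the damage kinases, 12 were tested, and their median change was -0.16 under the highest ETP dose, 0.05 under that of MMS and -0.23 under that of QUE. The calls in these lists stand beside 13.2%, 34.7% and 27.7% of all genes called in either direction at the highest doses of ETP, MMS and QUE. At ETP 3 µM the kinase CHEK1 was the 1 core gene called (-1.14), at MMS 500 µM CHEK2 (-0.81) and HIPK2 (-0.76), and at QUE 100 µM ATR (-0.91), ATM (-0.87) and MDM4 (0.70), the MDM2 partner. Of 7 other ligases of p53 tested, SIVA1 (-0.66) was called at ETP 3 µM, PIAS4 (0.94) and TRIM24 (-0.81) at MMS 500 µM, and 0 at QUE 100 µM. Of 10 housekeeping controls 0 were called at ETP 3 µM, while at MMS 500 µM HPRT1 (-1.02) and PGK1 (-0.83) were lower and TBP (0.61) was higher, and at QUE 100 µM HPRT1 (-0.79) was lower. At MMS 500 µM 4 of the 7 tested mesenchymal markers were called lower, with a list median of -0.72, and at QUE 100 µM both KRT8 and KRT18 were, with a median of -1.08. The part of these shifts in the member values was not tested.

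Of the 12 paralogs of the members 1 was called at the highest ETP dose and 3 at that of MMS and of QUE, where 13.2%, 34.7% and 27.7% of all genes were called in either direction. At ETP 3 µM PPM1A (0.63) was the 1 of 12 paralogs called, while PPM1B changed by -0.39, CCNG2 by 0.31, TP53INP2 by 0.48 and RPS27 by 0.07. At MMS 500 µM ZMAT1 (-0.80), TP53INP2 (-0.73) and PPM1B (-0.66) were called lower, and the ZMAT1 vehicle mean of 3.33 was below the filter level. At QUE 100 µM PPM1B (-2.28) and PHLDA1 (-1.78) were called lower and MDM4 (0.70) higher, opposite in direction to PPM1D and PHLDA3 for the first 2. Of the rest, CCNI changed by 0.18 at QUE 100 µM and 0.13 at ETP 3 µM, PHLDA2 by -0.10 and -0.13, ZMAT2 by -0.47 and 0.22 and PPM1G by -0.05 and 0.01.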

How the data were processed

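The authors deposited log2 signals per probe set, with GCRMA and Partek named as tools, per the submitters' processing notes, from Affymetrix PM arrays. Versions and a build are not given in the sources used here. Levels stayed within a chemical, since the array medians of the chemicals did not overlap. Symbols came from the platform annotation and were checked by gene ID against RefSeq. Of 54613 probe sets 26908 passed the filter (log2 of at least 4 in at least 5 arrays), giving 12012 genes. Arrays with the same number in a group (2 cases) were averaged. limma 3.58.1 in R 4.3.3 was fitted with a mean-variance trend over the 8 groups of each chemical, with calls at a Benjamini-Hochberg adjusted p under 0.05 and 1.5-fold, and was tested on simulated data. Errors beside changes are limma's SE. The number of arrays limits the precision. Members and gene lists were chosen with earlier results of these data known. Named are the 7 members, the 8 genes most like their mean, up to 4 called genes of each list with the largest change at each highest dose and all paralogs. PLK2, GREB1 and YBX3 values and the second probe sets were picked out after their values were seen. Same-number arrays deviated together from their group means (every pair above 0.1) except at MMS 500 µM, where the lowest pair was at -0.01, and QUE 60, 80 and 100 µM (0.06 to 0.07), which is a hint from the data and not from the labels. Figures used matplotlib 3.10.9.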

Additional observations from a re-analysis of the deposited data

Results flagged for a closer look

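Single arrays stood apart from their group in 11 of 168 groups of the 7 genes, 6.55%, where chance gives about 1 in 20. MDM2 read 10.34 in MMS 300 µM number 5 (others 10.63 to 10.72), 9.72 in QUE 3 µM number 4 (others 9.88 to 9.91) and 9.42 in QUE vehicle number 4 (others 9.76 to 9.84). CCNG1 read 11.25 in ETP 0.003 µM number 1 (others 11.77 to 11.96) and PHLDA3 4.84 in MMS 1 µM number 5 (others 5.36 to 5.66). TP53INP1 read 9.31 in ETP 0.1 µM number 3 (others 9.66 to 9.80) and 10.24 in ETP 3 µM number 3 (others 10.70 to 10.78). RPS27L read 12.68 in ETP vehicle number 1 (others 12.84 to 12.88), 12.15 in MMS 10 µM number 4 (others 12.39 to 12.47), 12.26 in MMS 30 µM number 4 (others 12.41 to 12.47) and 12.60 in QUE 10 µM number 3 (others 12.70 to 12.73). All 11 were the lowest of their group.

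On the chosen probe sets, some changes at the highest doses passed the p limit of limma's adjusted test of the difference between chemicals. ETP exceeded MMS by 1.30 for TP53INP1, 0.79 for PHLDA3 and 0.71 for PPM1D, which were called. It did so by 0.47 for MDM2, 0.45 for CCNG1 and 0.37 for RPS27L, under 1.5-fold and not called. ETP exceeded QUE by 0.54 for TP53INP1, 0.42 for PPM1D and 0.24 for RPS27L, all under 1.5-fold and not called. QUE exceeded MMS by 0.78 for CCNG1 and 0.77 for TP53INP1, both called. In these 3 comparisons 30.6%, 23.5% and 28.4% of all genes were called. The share of all genes passing the p limit alone was not counted.

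At the highest doses the left-out arrays numbered 2 also showed the members higher, each set against the number 2 vehicle of its own label, without a test. Each dosed group and the QUE vehicle had 1 such array. The ETP vehicle was the mean of 2 arrays, whose titles have the suffixes -nf and -o, which the labels do not explain. The array labelled ETP 3 µM differed by 1.21 for MDM2, 1.48 for PPM1D, 0.69 for CCNG1, 0.99 for ZMAT3, 1.10 for PHLDA3, 2.08 for TP53INP1 and 0.15 for RPS27L. The array labelled QUE 100 µM differed by 1.19 for MDM2, 2.10 for PPM1D, 0.33 for CCNG1, 1.03 for ZMAT3, 1.56 for PHLDA3, 2.62 for TP53INP1 and 0.25 for RPS27L.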

How the results depend on the processing

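With the replicate number as a block (replicate block) 0 of 147 member calls against vehicle changed, while 84 changes passed the p limit in place of 72 (12 gained, 0 lost, all 12 under 1.5-fold). The share of all genes passing with the block was not counted, so this gain cannot be read as particular to the members. The block moved none of 21 counts by dose, 12 by step and 3 between chemicals, and neither did leaving out the mean-variance trend. A fold limit of 2 lowered the members called to 1 and 3 for ETP 0.03 and 0.1 µM, 0 and 2 for MMS 100 and 500 µM and 1 for QUE 30 µM, and no fold limit raised them to 7 at ETP 0.3 µM. The mean of all probe sets gave 2 at MMS 100 µM, 0 for the step from ETP 0.01 to 0.03 µM, 1 for ETP 0.1 to 0.3 µM, 2 for MMS 100 to 300 µM and 4 for QUE minus MMS, and turned RPS27L at QUE 80 µM from 0.11 to -0.047, neither of them called. With number 2 kept the steps ETP 0.01 to 0.03 µM and QUE 30 to 60 µM fell to 0 and 0. In that setting PPM1D at ETP 0.03 µM (0.51, limma adjusted p = 0.360) and ZMAT3 at ETP 0.1 µM (0.52, limma adjusted p = 0.0585) lost their calls. PPM1D at QUE 30 µM (0.65, limma adjusted p = 0.00224) gained one. Counts are listed here only where they moved by over 1.5 times or to or from 0. Quantile normalization of all arrays gave 1 for ETP 0.1 to 0.3 µM and 1 for ETP minus QUE, and leaving out arrays with the suffix -nf gave 1 for ETP 0.1 to 0.3 µM. Median centring and no filter each gave 1 for QUE 30 to 60 µM. Leaving out 1 array gave 0 to 2 for ETP 0.01 to 0.03 µM, 0 to 1 for ETP 0.1 to 0.3 µM, 1 to 2 for MMS 100 to 300 µM, 2 to 4 for QUE 10 to 30 µM, 0 to 2 for QUE 30 to 60 µM and 0 to 1 for ETP minus QUE, and moved no count of members called against vehicle by over 1.5 times. Allowing 1 mismatch raised the member windows with a p53 half-site from 1 to 9. The cause of these differences was not tested, beyond the limit or the samples each setting changes. Some single calls that changed were near the 1.5-fold limit, but the mean of probe sets moved others further. With it TP53INP1 at MMS 100 µM went from 0.64 to 0.28 (limma adjusted p = 0.0878) and lost its call. PPM1D in QUE minus MMS went from 0.29 to 0.70 and MDM2 in ETP minus MMS from 0.47 to 0.95, and both gained a call. The number of arrays sets what could be called.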
